A study of Mus musculus with 2 samples.

Results

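The regions described here lie in clusters, meaning runs of 5 or more SF1 ChIP-seq regions on an autosome in which each region starts less than 10 kb after the end of the one before. They numbered 972 of the 16249 regions in the authors' list, 6.06% of the 16041 on autosomes, and formed 164 clusters. The members were chosen from their positions alone. Number, spacing and span of the clusters therefore follow in part from the choice and are given as a description without a test. Widths and scores come from the same list and are also given without a test.

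SF1 (NR5A1) is an orphan nuclear receptor that binds DNA as a monomer and drives the genes of steroid hormone synthesis in the adrenal cortex and gonads. In the uterus it is best known from endometriosis, whose stromal cells express it while healthy endometrium has little. The study asked, going by its title, what SF1 in the endometrium does to gland shape. ChIP-seq regions of a transcription factor often lie in groups, since promoters and enhancers of 1 locus can each carry signal, and some callers also list several stretches of 1 broad enriched domain separately. The list cannot separate these cases.

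The chromatin came from whole uterus of C57BL6/6J mice aged 8 weeks. Their ovaries had been removed at 6 weeks of age, followed by 2 weeks of rest to deplete their own hormones. The design held 1 ChIP library made with an SF1 antibody and 1 input library made without one, both from mice with these labels. Only the region list of the ChIP library was analysed here, so no value has a replicate check. The labels name no transgene and do not say whether tissue was pooled, and without read totals the sequencing depth stays unknown. The tissue could not be checked against marker genes, since the list holds no expression values. Each region has 1 whole-number score whose meaning the file does not state. It is used here to rank regions within the list.

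Most autosomal regions had no neighbour within 10 kb. Those 9103 regions stood beside 1785 groups of 2 regions, 532 of 3 and 200 of 4. Groups of exactly 5 regions numbered 87, and 46 groups held 6, 15 held 7 and 7 held 8. The 9 largest held between 9 and 16 regions each, 100 regions together. Each larger size up to 10 regions thus had fewer groups, and clusters of 5 or 6 made up 133 of the 164. The X chromosome was outside the choice; its 208 regions formed no group larger than 4.

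**Figure D1:**
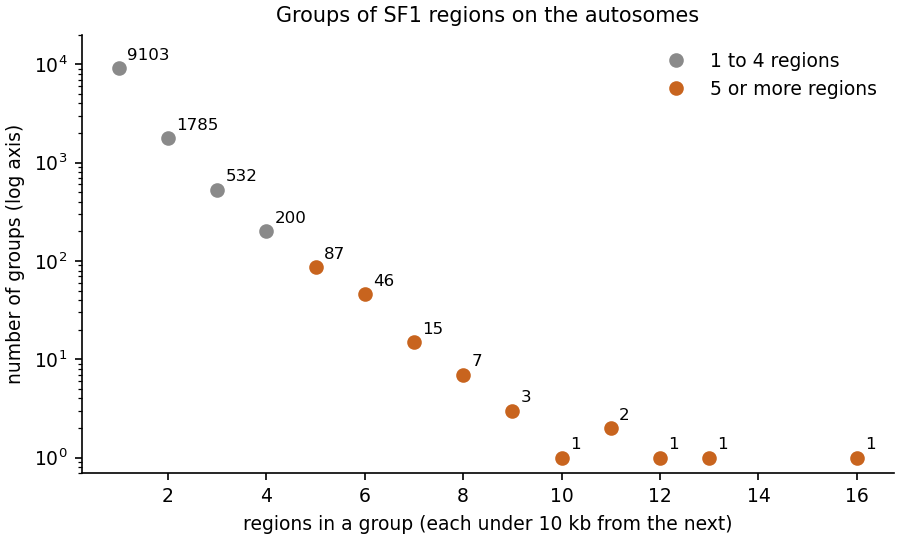
Number of groups of SF1 regions on the autosomes (vertical, log axis) by the number of regions in the group (horizontal), with the count printed at each point. Groups of 5 or more regions are in orange; their number runs from 87 with 5 regions to 1 with 16.

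The largest cluster held 16 regions over 120206 bp on chromosome 12 (80981176 to 81101382, mm9). In order along the chromosome their scores were 12, 20, 29, 45, 16, 14, 24, 15, 41, 25, 10, 16, 13, 34, 14 and 23. High and low scores lay side by side along its length, with scores of 29 or more at places 3, 4, 9 and 14. Regions covered 80.8% of the span, and 3 of them were over 10 kb wide, at 13139, 10952 and 13058 bp. The largest gap was 7262 bp, after the ninth region, and the smallest was 21 bp. Of its 15 gaps, 8 were under 1 kb.

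The cluster on chromosome 14 (26275513 to 26388282) held 13 regions over 112769 bp. Its scores ran 35, 28, 15, 23, 11, 22, 21, 13, 13, 25, 31, 32 and 20, so the higher ones lay towards both ends. The covered share was 73.5%. A gap of 9309 bp before the eleventh region set off the last 3 regions, and it lay close to the limit of 10000 bp. Without that gap as a link the cluster would have been split into 10 and 3 regions.

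The cluster on chromosome 1 (74037328 to 74117930) was uneven. Its first 5 regions scored 37, 18, 52, 37 and 35, and its last 6 scored 12, 12, 16, 15, 15 and 17. The first 4 followed each other across gaps of 43, 246 and 49 bp. The fifth region, 15930 bp wide, began 3123 bp further on. Every later region of this cluster scored below all of the first 5.

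On chromosome 11 (59693594 to 59779471) 12 regions spanned 85877 bp and 1 of them stood out. The ninth was 12201 bp wide with a score of 39, the fourth scored 31, and the other 10 scored between 12 and 19. The 11 regions on chromosome 8 (34979325 to 35042945) had low scores throughout, from 11 to 23 with a median of 14. The cluster on chromosome 18 (75524519 to 75580114) had 10 regions scoring from 12 to 31. Its smallest gap was 4 bp, and a gap of 9616 bp divided it into 5 and 5 regions.

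**Figure D2:**
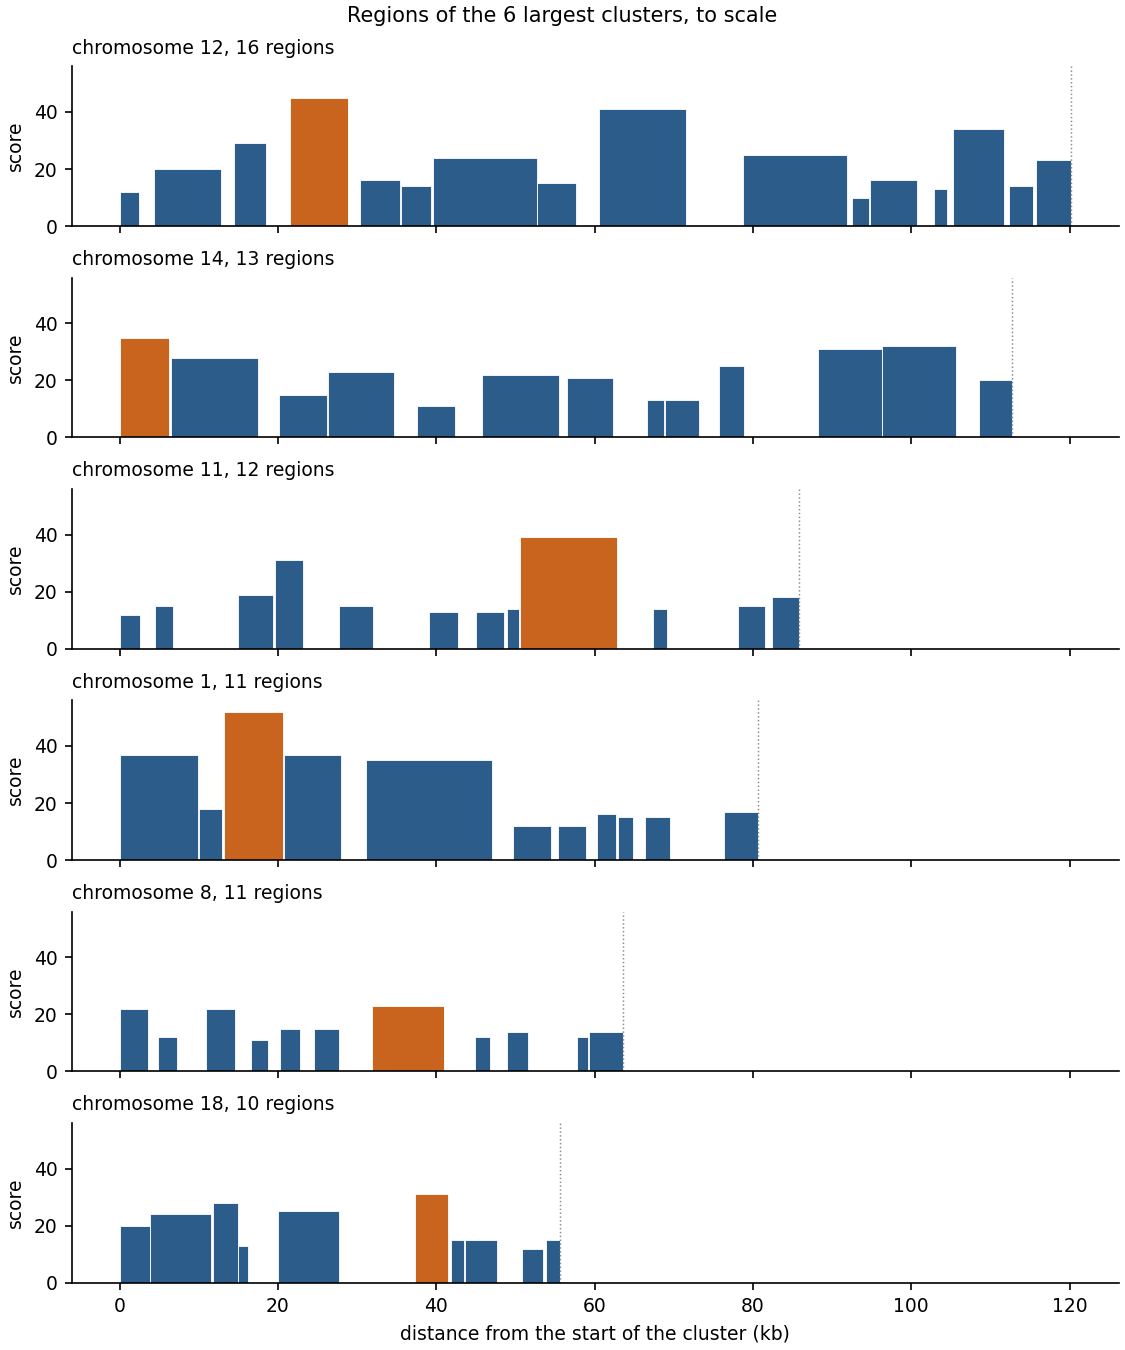
Maps of the 6 largest clusters, drawn to scale: horizontal, distance from the start of the cluster in kb; each bar is 1 region, with its width as listed and its height the deposited score. The highest score of each cluster is orange and the dotted line marks the end of the cluster, between 55595 and 120206 bp; the highest bar is 52, on chromosome 1, and no bar passes 23 on chromosome 8.

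The 3 clusters of 9 regions also differed in score. On chromosome 5 (125607378 to 125662612) the third and the last region both scored 39, and the other 7 scored from 12 to 25. On chromosome 1 (121282444 to 121320333) the highest score was 42 at place 5 of 9, beside scores of 10 and 13. On chromosome 2 (33059265 to 33109520) no score passed 20. Thus equal numbers of regions came with highest scores of 39, 42 and 20.

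The 6 clusters of 8 regions with the longest spans ran from 48923 to 76860 bp. The highest score among them was 66, on chromosome 15 (85455256 to 85519177), at place 6 of 8. It was followed by 57 on chromosome 11 (69467156 to 69534123), 44 on chromosome 3 (90199956 to 90254423) and 39 in a further cluster on chromosome 11 (68872254 to 68949114). On chromosome 7 (80716070 to 80764993) and chromosome 1 (36595055 to 36661040) the highest scores were 26 and 21. In 5 of these 6 the regions covered less than 50% of the span, and in the further cluster on chromosome 11 they covered 58.5%.

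A cluster spanned a median of 36369.5 bp (quartiles 29048 and 44700 bp, range 10853 to 120206 bp). Regions covered a median of 55.2% of that span, from 30.5 to 96.9%, and more than 50% in 113 of the 164 clusters. This share depends in part on the gap limit: with 25 kb in place of 10 kb its median was 31.2%. The 808 gaps inside clusters had a median of 2697.5 bp, with quartiles of 675 and 5369.5 bp. The 3449 gaps inside groups of 2 to 4 regions had a median of 3360 bp. By size, the median gap was 3561 bp in groups of 2, 3060.5 bp in those of 3 and 3129.5 bp in those of 4. It was 2546 bp in clusters of 5, 2747.5 bp for 6, 3278.5 bp for 7, 4597 bp for 8 and 1546 bp for 9 to 16. The median gap thus did not fall steadily with size.

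Very short gaps were common. Of the gaps inside clusters, 249 (30.8%) were under 1 kb and 58 (7.18%) under 100 bp, against 25.5% and 5.89% in groups of 2 to 4. At least 1 gap under 1 kb occurred in 131 clusters, and 33 clusters had none. Joining regions less than 1 kb apart before grouping left 76 clusters with 425 regions, counted after joining. Thus 76 in place of 164 clusters were found when near-touching regions counted as 1. Which of the short gaps lie within 1 enriched stretch was not tested.

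Gaps within a cluster were uneven. Their coefficient of variation, the SD divided by the mean, had a median of 0.853 and ranged from 0.179 to 1.79. The median cluster had a smallest gap of 264 bp and a largest of 7505.5 bp. Every gap was under 5 kb in 32 clusters. The outermost gaps of a cluster, 328 in number, had a median of 3003 bp and the 480 inner ones 2511.5 bp.

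In this list, regions in clusters were wider than other regions. The median width was 2995 bp (quartiles 2074.75 and 4642.75 bp), against 2334.5 bp in groups of 2 to 4 and 1932 bp in regions with no neighbour. Over 5 kb were 212 of the 972 members, or 21.8%, against 10.3% of regions in groups of 2 to 4 and 3.45% of single regions. Over 10 kb were 34 members (3.50%), 76 regions in groups of 2 to 4 (1.27%) and 24 single regions (0.264%). Members made up 6.06% of autosomal regions and 8.81% of the sequence they covered. Widening a region shortens the gaps beside it, so the rule itself favours wide regions. With the distance taken from midpoint to midpoint in place of end to start, 82 clusters with 444 regions remained. Their median width was 2790 bp, and the median difference to single regions was 799 bp in place of 1063 bp. Midpoint distances include part of the widths of both regions, so that choice also depends on width.

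Median width was larger in each larger group size from 1 to 4 regions, at 1932, 2183, 2487 and 2816 bp. It was 2817 bp in clusters of 5, 2983 bp in those of 6, 3340 bp in those of 7, 2955.5 bp in those of 8 and 3547 bp in those of 9 to 16. Groups of 4, just outside the choice, and clusters of 5, just inside it, thus had almost the same median width. From 5 regions upwards, neighbouring sizes had overlapping 95% intervals of the median. They were 2634 to 3114 bp for 5 regions, 2763 to 3223 bp for 6 and 2743 to 3793 bp for 7. For 8 regions the interval was 2416 to 3812 bp, and for 9 to 16 it was 3020 to 4124 bp. All of them treat the regions of a cluster as independent, so their overlap does not show equal widths.

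Scores differed far less than widths. The median was 18 in clusters (quartiles 14 and 24), 17 in groups of 2 to 4 (13 and 23) and 17 in single regions (13 and 22). Scores under 13 were given to 140 members, 14.4%, against 17.2% and 17.8%. Scores of at least 50 went to 27 members, 2.78% (exact 95% interval 1.84 to 4.02%), to 142 regions in groups of 2 to 4, 2.38% (2.01 to 2.80%), and to 146 single regions, 1.60% (1.36 to 1.88%). The interval for members overlapped both others, but that of single regions only from 1.84 to 1.88%. The intervals of groups of 2 to 4 and of single regions did not overlap. These intervals treat regions as independent, which neighbours are not. The highest member score was 100, whereas single regions reached 141 and groups of 2 to 4 reached 156.

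**Figure D3:**
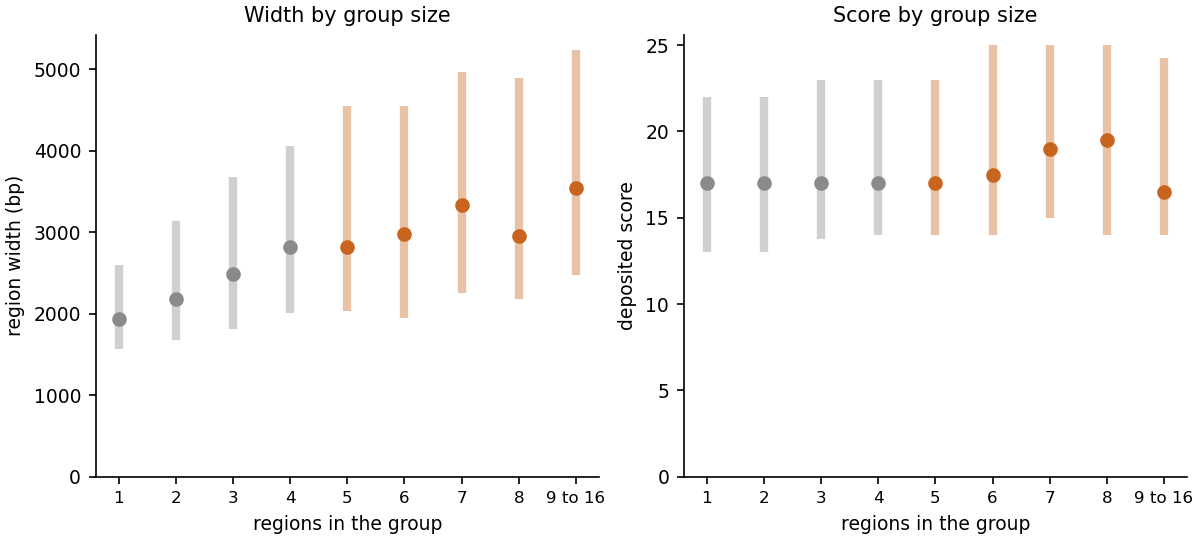
Width in bp (left) and deposited score (right) of autosomal regions by the number of regions in their group. Points are medians and bars run from the lower to the upper quartile, with clusters of 5 or more in orange; median width runs from 1932 bp in single regions to 3547 bp in groups of 9 to 16, while median scores stay between 16.5 and 19.5.

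Among members, wider regions scored higher. Across the 972 members, score and width had a Spearman correlation of 0.578. It was 0.496 in groups of 2 to 4 and 0.442 in single regions. These are descriptions across regions of 1 library, and score and width come from the same call of each region. Of the 34 members over 10 kb wide, 8 scored 50 or more. The regions over 10 kb lay in 29 clusters, 4 of which held 2 or more.

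Members of a cluster did not share a level of score. The intraclass correlation of log2 score, an estimate of the part of the variance that lies between clusters, was -0.00245, a value near 0, so members of 1 cluster were on average no closer in score than members of different clusters. In groups of 2 to 4 the intraclass correlation of log2 score was also near 0, at -0.00534. Adjacent members of clusters had a Spearman correlation of score of -0.0138 over 808 pairs. The SD of log2 score was 0.53 inside the median cluster and 0.60 over all members. The former is a median of SDs over 5 to 16 scores each, so the values are not a like comparison. Widths did share a level to a small degree, with an intraclass correlation of log2 width of 0.102 in clusters and 0.207 in groups of 2 to 4. The Spearman correlation of width between adjacent members was 0.113.

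The strongest region of a cluster scored a median of 32, from 16 to 100, while the lowest score had a median of 12, from 8 to 21. The strongest region scored 1.29 times the second strongest in the median cluster (quartiles 1.14 and 1.55). It reached 2 times the second or more in 20 clusters and stayed under 1.1 times in 32. A score of 50 or more occurred in 25 clusters, of which 2 held 2 such regions each. At the other end, 36 clusters had no score of 25 or more, and in 9 of them none reached 20.

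**Figure D4:**
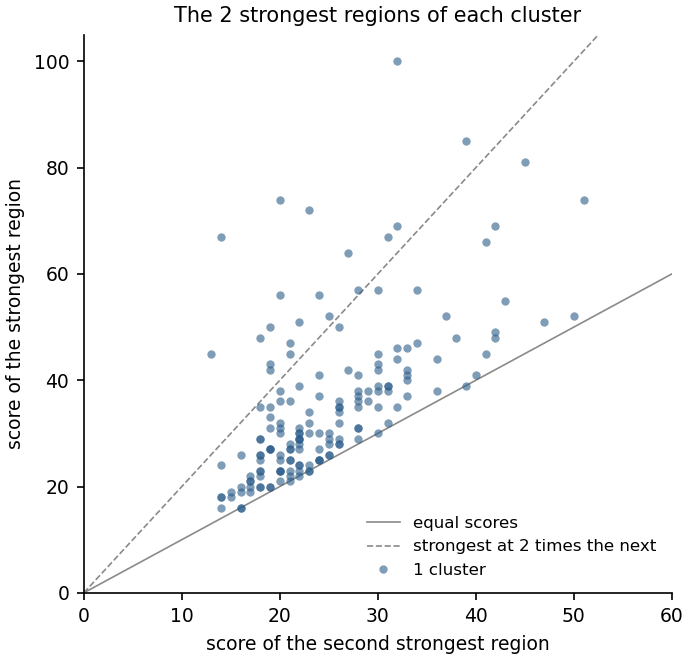
Score of the strongest region (vertical) against that of the second strongest (horizontal) for each of the 164 clusters; darker points are clusters that coincide. The solid line marks equal scores and the dashed line a strongest region at 2 times the next, a ratio that 20 clusters reach.

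The strongest region lay at either end of its cluster about as often as the share of end places in the clusters. In 156 clusters 1 region had the highest score, and 8 had ties. It was the first region in 26 and the last in 23, together 49 of 156 or 31.4% (exact 95% interval 24.2 to 39.3%). End places made up 35.2% of the places in these clusters on average, a value inside that interval. End and inner regions both had a median score of 18. Their median widths were 2841 bp (95% interval 2577 to 3149 bp, 328 regions) and 3059.5 bp (2890 to 3269 bp, 644 regions), with overlapping intervals. Those intervals, too, treat the regions of a cluster as independent.

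The strongest region was often the widest. That was so in 77 of 156 clusters, 49.4% (41.3 to 57.5%), where 1 place is 17.6% of the places on average. Its width had a median of 5015 bp, and the median ratio to the middle width of the other members was 1.80. In 132 of 156 clusters it was wider than the median of the others. The link follows from the correlation of score and width given above and is no separate result.

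On chromosome 1, a region 8905 bp wide (65084442 to 65093347) had the highest member score, 100. It stood at rank 10 in the whole list and lay in the middle of a cluster of 5, whose scores ran 32, 13, 100, 13 and 14. The other 4 regions were between 1690 and 2289 bp wide. They lay up to 2370 bp from their neighbours, so this cluster was 1 dominant region with small ones beside it.

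A cluster of similar form lay on chromosome 6 (85295211 to 85331403). Its scores were 12, 14, 12, 10, 67 and 10, and the strongest region, 10828 bp wide, scored 4.79 times the next, the largest such ratio of the 164 clusters. On chromosome 8 (129036762 to 129076331) the scores were 17, 74, 20, 14 and 15, a ratio of 3.70. On chromosome 2 (30483130 to 30525265) they were 23, 15, 16, 72 and 19, a ratio of 3.13. In both, the strongest region was also over 10 kb wide, at 12972 and 18227 bp. On chromosome 10 (75068102 to 75099044), where scores ran 32, 23, 10, 69 and 11, it was 4943 bp wide.

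Other high-scoring clusters held more than 1 high region. On chromosome 4 (132566038 to 132613359) the 7 scores were 29, 14, 46, 19, 74, 18 and 51, so every other region was high and those between were low. On chromosome 6 (86144142 to 86178328) the scores were 17, 13, 17, 81, 45 and 14, with both high regions next to each other across 4974 bp. On chromosome 7 (116731244 to 116782622) they were 69, 42, 36, 12, 30 and 8, with the 3 highest at the start.

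Chromosome 19, like chromosome 6, held 2 of the 10 clusters with the highest scores. In the cluster at 53495417 to 53518027 the scores were 21, 12, 29, 10, 85 and 39. In the cluster at 5770128 to 5819622 they were 21, 31, 12, 28, 67 and 13. In both, the strongest was the fifth of 6 regions. The former was compact, with no gap over 2022 bp and a covered share of 79.5%. The latter was open, with gaps from 2242 to 8486 bp and a covered share of 52.7%.

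The most fully covered cluster lay on chromosome 12 (88222675 to 88242206). Its 5 regions filled 96.9% of 19531 bp and were parted by gaps of 145, 313, 123 and 20 bp. On chromosome 2, the cluster at 74516993 to 74554892 was 94.0% covered, and its first region of 16378 bp scored 50. A further cluster on that chromosome, at 167582919 to 167607862, was 93.8% covered with scores of 27, 14, 19, 16 and 12. On chromosome 11 (98786370 to 98833844) the share was 92.3%, and 2 adjacent regions 339 bp apart scored 51 and 47. These 4 were the clusters covered over 90%, and each had at least 3 gaps under 1 kb.

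The shortest cluster held 5 regions within 10853 bp on chromosome 12 (3805194 to 3816047). All its regions were between 1594 and 2265 bp wide, all 4 gaps were under 1 kb, and 1 region scored 31 where the others scored 11 to 19. On chromosome 3 (37730893 to 37746366) a span of 15473 bp held scores of 14, 16, 14, 14 and 16, with 2 regions tied for the highest. The other three of the shortest lay on chromosome 8 (73889946 to 73908212), chromosome 9 (66078701 to 66097701) and chromosome 11 (96162776 to 96181905). Their spans were 18266, 19000 and 19129 bp and their highest scores 28, 21 and 16. These 5 shortest clusters thus ranged from 16 to 31 in highest score. That range does not hold for short clusters in general, since the cluster with the score of 100 spanned 21387 bp.

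The widest member spanned 19107 bp on chromosome 11 (98632304 to 98651411) and scored 36, in a cluster whose first region scored 44. It was followed by the region of 18227 bp on chromosome 2 given above. A region of 17210 bp on chromosome 14 (70593810 to 70611020) scored 38, 1 of 16471 bp on chromosome 4 (132635693 to 132652164) scored 52, and the region of 16378 bp on chromosome 2 scored 50. The last of a cluster of 7 and the first regions of clusters of 6 and 5 were thus among the 5 widest, so wide members also lay at cluster edges.

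Some clusters lay close to another. Pairs of clusters less than 50 kb apart numbered 10 and involved 19 clusters. The closest lay on chromosome 8, where a cluster of 6 (34932163 to 34969036) ended 10289 bp before the cluster of 11 described above. With a slightly longer limit those 17 regions would have formed the largest group. On chromosome 6 (121051029 to 121129444) 2 clusters of 5 lay 11450 bp apart. On chromosome 7, 3 clusters of 5, 7 and 5 regions followed each other between 117767867 and 117936916, at distances of 32520 and 36274 bp. The cluster on chromosome 4 with the score of 74 lay 22334 bp from the cluster that holds the wide region with the score of 52.

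Clusters lay in region-rich surroundings, but not always. Within 500 kb of either edge the median cluster had 19.5 other regions (quartiles 14 and 25), against 15 for groups of 2 to 4 and 11 for single regions. These flanks correspond to 1 region per 51315.8 bp in the median cluster. Regions were 7.99 times as dense along the cluster itself as in its own flanks in the median (95% interval 7.26 to 9.43), and at least 2.73 times in every cluster. A higher density inside than outside is part of how clusters were chosen.

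The share of groups that reached 5 regions was larger where more regions lay around. Group size and surrounding regions were both counted from the positions used for the choice. A fixed gap limit tends to give longer groups where regions are dense, so this trend is a description only. The share was 0.220% of 1817 groups with 0 to 4 other regions in the flanks (exact 95% interval 0.0600 to 0.563%). With 10 to 14 it was 1.22% (0.826 to 1.74%). The share was 2.99% (2.15 to 4.05%) with 20 to 24 and 2.70% (1.96 to 3.64%) with 25 or more, with overlapping intervals. Still, 4 clusters had under 5 other regions within 500 kb. The region nearest to a cluster lay within 20 kb in 87 clusters and over 100 kb away in 5.

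Clusters were found on 18 of the 19 autosomes. Chromosomes 8 and 11 held 19 each, chromosome 7 held 17, and chromosomes 2 and 4 held 15 each. Per region, chromosome 8 was highest, with 11.8% of its 905 regions in clusters (exact 95% interval 9.79 to 14.1%). Chromosome 12 followed at 9.36% (7.23 to 11.9%), with 16 of its 61 members from the largest cluster. Chromosome 11, the densest in regions at 11.4 per Mb, came to 8.58% (7.14 to 10.2%), and chromosome 7 to 8.57%. Chromosome 10, with 6.63 regions per Mb, had 2.41% (1.48 to 3.70%) in 4 clusters of 5. Chromosome 16 had no cluster among 492 regions. Chromosome 8 had 7.07 regions per Mb and chromosome 17 had 7.30, but their shares were 11.8% and 3.27% (2.06 to 4.91%). Since members come in whole clusters, these intervals are too narrow.

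**Figure D5:**
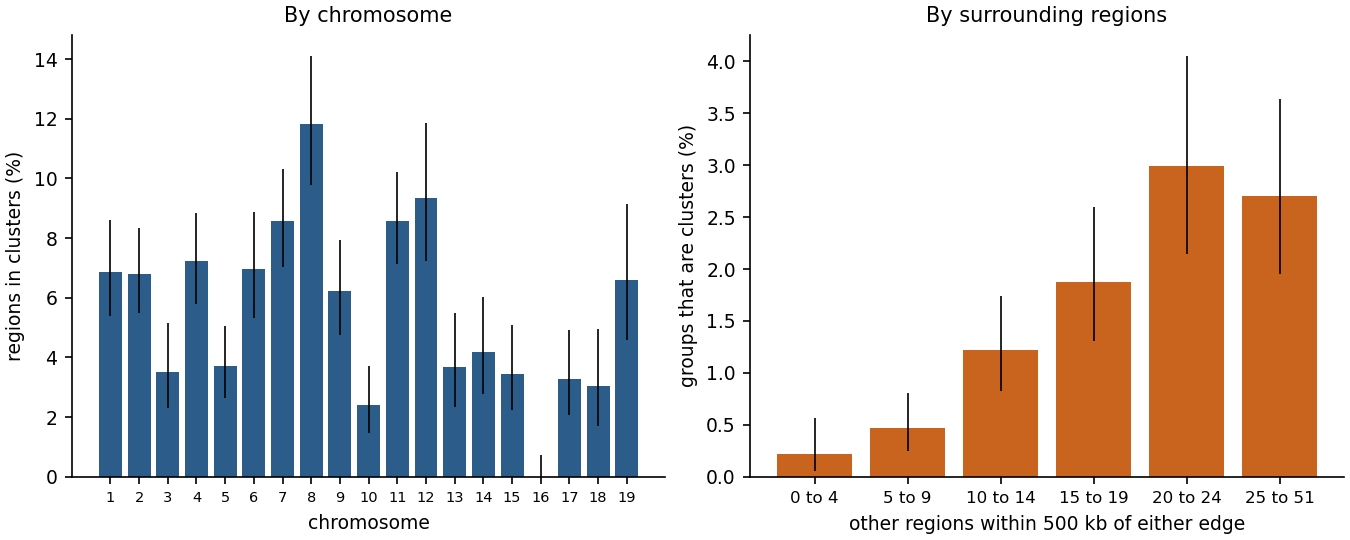
Left, percentage of each autosome's regions that lie in clusters; right, percentage of groups (single regions included) that are clusters, by the number of other regions within 500 kb of either edge. Lines are exact 95% binomial intervals, which treat regions or groups as independent; chromosome 8 is highest at 11.8% and chromosome 16 has none.

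Near the limit of 10000 bp, small shifts decided membership. The longest gaps that still joined members were 9954 bp on chromosome 2, and 9991 and 9999 bp on chromosome 8. Just outside, a gap of 10037 bp on chromosome 6 kept 1 region from a group of 4, and a gap of 10038 bp on chromosome 2 kept groups of 3 and 2 apart. A gap of 10050 bp on chromosome 15 separated 2 further regions from the cluster of 8 described above.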

How the data were processed

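Per the submitters' processing notes, reads (50 nt, single end, per the labels' protocols) were aligned with BWA to mm9. Which version, which program called the regions, at what threshold and with what role for the input is not stated in these sources. The deposited list holds chromosome, start, end, name and, as its last column, a deposited score without a stated unit. Positions are printed as deposited.

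Regions on the 19 autosomes were sorted by start and joined while the next start minus the previous end was under 10000 bp; groups of 5 or more were kept. Medians carry order-statistic 95% intervals and shares exact Clopper-Pearson ones, both for this 1 library. No test was made. The members and the measures were chosen with earlier results of these data known. The text names clusters and regions by rank: most regions (15), highest score (10), highest covered share, shortest and longest span (5 each), the 10 highest and 5 widest member regions, and gaps next to the limit; pairs of clusters were added after their values were seen. Neither an annotation nor a sequence of mm9 was used, so no gene or sequence is given. Random placements were not used. Planted clusters in simulated lists were used to test the code. Python 3.11.15, numpy 2.4.6, pandas 2.3.3, scipy 1.17.1 and matplotlib 3.10.9 were used.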

Additional observations from a re-analysis of the deposited data

How the results depend on the processing

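The results describe 1 library, and most moved with the definition of a cluster, by construction. In the order number of clusters, number of regions in them and share of autosomal regions, the values were 164, 972 and 6.06% as reported. They were 57, 318 and 1.98% with a limit of 5 kb, 543, 3688 and 23.0% with 25 kb, 364, 1772 and 11.0% from 4 regions up, and 31, 261 and 1.63% from 7 up. They were 76, 425 and 2.85% after merging within 1 kb, 18, 97 and 1.17% in the top 50% by score, and 82, 444 and 2.77% by midpoints. After merging and in the top 50%, the share is of the autosomal regions left in the altered list. Those shares thus have a smaller denominator than the 6.06%, and the 425 were counted after merging. Median span was 27248 bp (5 kb), 64955 bp (25 kb), 28668.5 bp (4 up), 55595 bp (7 up), 42634.5 bp (merged), 41646 bp (top 50%) and 28217 bp (midpoints). Median gap was 1343 bp (5 kb), 6403 bp (25 kb), 4238 bp (merged), 4029 bp (top 50%) and 1584.5 bp (midpoints). Covered share was 74.8% (5 kb), 31.2% (25 kb), 51.6% (merged) and 64.0% (midpoints). Median width of members was 2693.5 bp (25 kb), 3340 bp (7 up), 3394 bp (merged), 4064 bp (top 50%) and 2790 bp (midpoints), and their median score 19 (7 up), 19 (merged) and 25 (top 50%, a choice by score). The strongest region lay at an end in 40.7% (5 kb), 42.7% (4 up, where ends are a larger share of places), 20.7% (7 up, where they are a smaller one) and 39.7% (midpoints). Its ratio to the next was 1.36 (5 kb) and 1.22 (top 50%). Members stayed wider than single regions under all 7 alternatives, by 799 to 1739 bp in the median, an addition made after seeing the data. All but the midpoint alternative kept the end-to-start distance, which itself favours wide regions, and merging widens the regions it joins. Their wider members are therefore no independent check. The midpoint alternative gave the smallest difference, 799 bp. Midpoint distances include part of the widths of both regions, and the single regions were newly defined in each alternative. The 799 bp is therefore not free of the rule either. The difference in median score was between 0 and 3. No paired analysis was possible because neither library has a replicate, so none could be left out either. The effect of depth could not be examined without read totals.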
